A study of Mus musculus and Homo sapiens with 12 samples.

Results

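Mouse T-cell acute lymphoblastic leukaemia (T-ALL) grown in animals on a diet with 0.4 g/kg valine was compared with mouse T-ALL from animals on a control diet with 8 g/kg valine. Members are the genes whose FPKM (fragments per kilobase of gene, scaled to library depth) averaged 1 or more across the 8 mouse libraries, which kept 9943 of 10430 listed genes and left out 487. Just inside this limit lay A630033H20Rik at a mean of 1.0 FPKM and Acox2 at 1.001, and just outside it Ttc26 at 0.9975 and Fam57a at 0.9972. Each diet had 2 libraries, named TALL2 and TALL3, and pairs of values below are in that order. What the names stand for is not explained by the labels.

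All 4 diets were given to C57BL/6 mice that carried secondary transplants of a leukaemia driven by NOTCH delta E, a NOTCH1 lacking most of its outer part and therefore active without ligand. The comparison was 0.4 g/kg valine (2 libraries) against 8 g/kg valine (2 libraries), with the diets of 0.8 and 0 g/kg (2 libraries each) as further points. After 3 weeks on the diets, leukaemic cells were sorted from the spleen by their GFP, and total RNA was sequenced. The controls also carry a NOTCH delta E tumour with GFP, and dietary valine is the difference that the labels give. Whether the libraries come from 1 tumour or several is not stated, so tumour and library name cannot be told apart. The treatment protocol also describes valine of 0.4 or 0.8 g/L in drinking water beside a valine-free diet, so the g/kg figures serve here as names of the diets. The sources used here give neither age nor the number of animals per library or of primary tumours. P-values reflect no more than the spread among these libraries, and that spread may be technical. The KOPTK1 cell line libraries of the series were not used.

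Valine is 1 of the essential branched-chain amino acids, so cells must take it up from the diet or from broken-down protein. When an amino acid runs short, uncharged tRNA activates the kinase GCN2, which phosphorylates eIF2 alpha, slows general translation and favours translation of the transcription factor ATF4. ATF4 then switches on genes for amino acid synthesis, uptake and tRNA charging, and the same shortage lowers the activity of the growth kinase mTORC1. Proliferating T-cell leukaemia cells draw heavily on imported amino acids for protein and nucleotide synthesis.

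Depth, estimated as whole reads from the step size of low FPKM values, came to 37677050 and 16806872 reads at 0.4 g/kg, against 21247981 and 16080866 reads at 8 g/kg, and to between 14218071 and 25832053 reads in the other 4 libraries. Markers of the labelled cell type were present: 30 of 31 thymocyte and T-ALL markers were measured, and their summed FPKM was 6912 and 6621 at 0.4 g/kg, against 6284 and 7181 at 8 g/kg. Thy1, a surface marker of T cells, was at 957 and 909 FPKM at 0.4 g/kg and at 862 and 969 FPKM at 8 g/kg. Summed markers of other cells lay below the T-lineage sums but were not equal between libraries. Of 14 NK and cytotoxic markers 6 had values, and Ncr1, Klrb1c and Eomes were among those without. The 6 summed to 611 and 915 FPKM at 0.4 g/kg and to 600 and 491 FPKM at 8 g/kg. Gzma alone was at 570 and 854 FPKM at 0.4 g/kg and at 563 and 454 FPKM at 8 g/kg. Of 20 endothelial and stromal markers 3 had values, and Cdh5, Kdr, Vwf, Col1a1 and Dcn were among those without. The 3 summed to 300 and 264 FPKM at 0.4 g/kg and to 323 and 315 FPKM at 8 g/kg. Over 19 listed neutrophil markers the summed FPKM was 16.3 and 91.5 at 0.4 g/kg, against 3.14 and 15.4 at 8 g/kg, where 7 of the 19, S100a8 among them, were listed at 0 in TALL2. For comparison, the 0 g/kg libraries summed to 681 and 394. Over 18 listed erythroid markers it was 150 and 139 FPKM at 0.4 g/kg and 206 and 377 FPKM at 8 g/kg. Of 24 B-cell and MHC class II markers 6 had values, with sums of 30.1 and 48.8 FPKM at 0.4 g/kg and 16.3 and 36.2 FPKM at 8 g/kg.

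**Figure D1:**
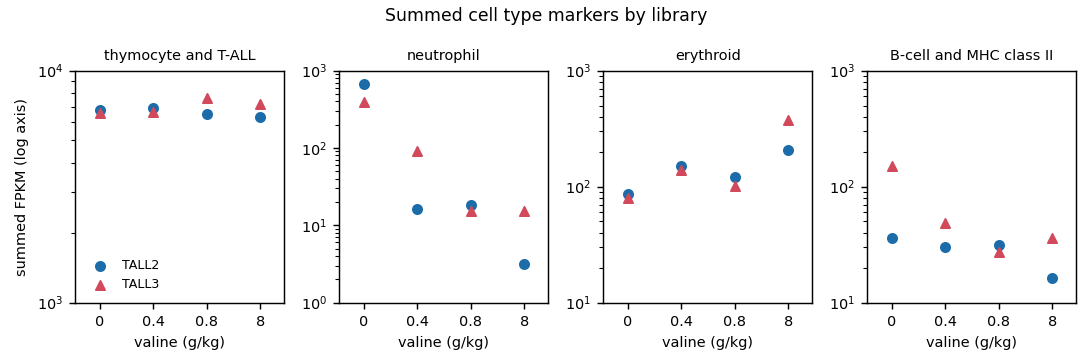
Summed FPKM of cell type marker lists (log axis) in each library by valine in the diet, with circles for TALL2 and triangles for TALL3. T-lineage sums stay between 6284 and 7631, while neutrophil sums run from 3.14 in the TALL2 control to 681 at 0 g/kg, with the TALL3 library at 0.4 g/kg at 91.5.

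The library labelled TALL3 at 0.4 g/kg lay nearer TALL2 for most genes that separate the names in the other diets. Across all tested genes its nearest library of another diet was TALL2 at 0.8 g/kg (Pearson r 0.979). TALL3 at 0 g/kg, in turn, had TALL3 at 0.4 g/kg as its nearest (0.963). In the diets of 0, 0.8 and 8 g/kg, 22 genes separated TALL2 from TALL3 by at least 4-fold on the FPKM + 1 scale in every diet. At 0.4 g/kg the TALL2 library lay nearer the other TALL2 libraries for 18 of the 22, and the TALL3 library also lay nearer TALL2 for 17. With a limit of 2-fold, 112 genes separated the names, and the counts nearer TALL2 were 93 and 75. Rec8, a meiotic cohesin subunit, was at 13.6 and 12.9 FPKM at 0.4 g/kg, while TALL2 and TALL3 differed in every other diet: 20.0 and 0.190 FPKM on 0 g/kg, 19.6 and 0.327 FPKM on 0.8 g/kg, and 7.88 and 0.359 FPKM on 8 g/kg. Wls, which carries WNT proteins to the cell surface, was at 0.0355 and 2.09 FPKM at 0.4 g/kg, against 0.142 and 32.1 FPKM at 8 g/kg. Ptcra, the pre-T-cell receptor alpha chain, was at 39.8 and 27.2 FPKM at 0.4 g/kg, against 10.3 and 70.4 FPKM at 8 g/kg. These genes were chosen for a gap between the names in the other diets, so the controls lay apart by construction. A smaller gap at 0.4 g/kg than between the controls was therefore largely fixed in advance. The medians of gene lists against 8 g/kg are followed by their range when each of the 4 libraries was left out. Which tumour the TALL3 library at 0.4 g/kg came from was not tested.

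**Figure D2:**
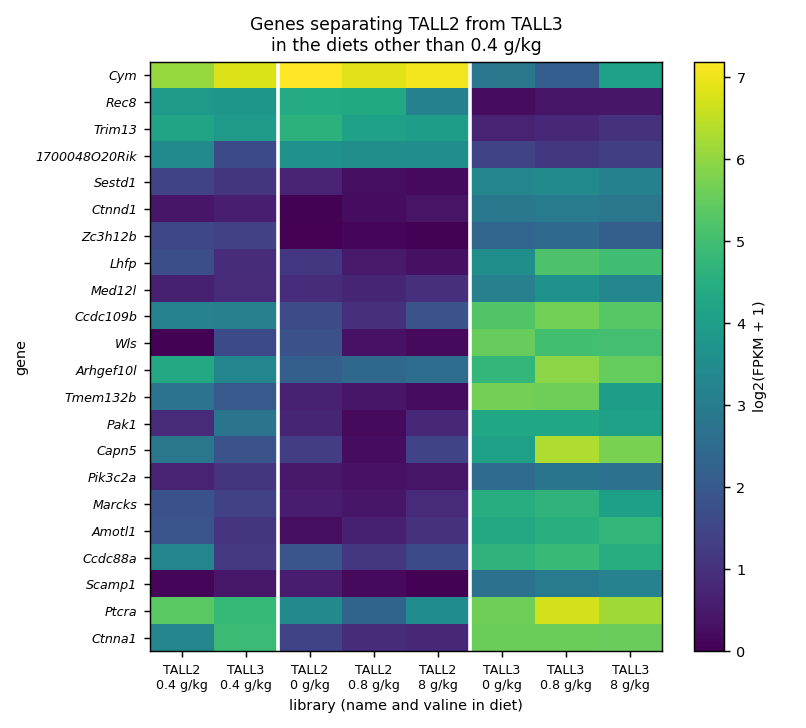
Colour gives log2(FPKM + 1) of the 22 genes that separate TALL2 from TALL3 in the other 3 diets, with 1 column per library and the 0.4 g/kg libraries on the left. Most rows of the TALL3 library at 0.4 g/kg have the colour of the TALL2 columns, as for Rec8 and Trim13.

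No gene passed the threshold in this comparison. Limma, fitted on log2(FPKM + 1) over all 8 mouse libraries, called 0 of 9943 genes (0%) at an adjusted p under 0.05, with a smallest adjusted p of 0.389. Before adjustment 1059 genes (10.7%) had a p under 0.05 in limma, 306 of them (3.08%) higher and 753 (7.57%) lower at 0.4 g/kg. Limma-voom on the recovered reads also called 0 and had 1046 such genes. With TALL3 at 0.4 g/kg left out, limma called 0, with 92 higher and 328 lower genes at an unadjusted p under 0.05. The values of single genes are given as measurements, none of which passed. The diets are said not to overlap where the lower 0.4 g/kg library exceeded the higher control, or the higher one stayed under the lower control. This held for 1682 genes above (16.9%) and 3164 below (31.8%), and groups of genes are read against these shares.

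The balance between the directions depended on scaling. The median difference over all genes was -0.05 on the log2 scale, and median-of-ratios scaling removed it. It then put 2355 genes (23.7%) above and 2362 (23.8%) below, and at an unadjusted p under 0.05 limma gave 471 higher (4.74%) and 503 lower genes (5.06%), so that 48.4% of them were higher in place of 28.9%. Quantile normalisation gave 426 higher (4.28%) and 475 lower genes (4.78%), with 47.3% of them higher, and voom 361 higher and 685 lower (34.5% higher). By size, 51 genes lay above both controls with at least a 2-fold difference in FPKM + 1 and 64 lay below. Gene length moved with the direction: of the 3313 longest genes 19.8% lay above and 28.7% below, and of the 3314 shortest 15.3% lay above and 33.4% below. Among 102 lincRNA genes, long RNAs that code for no protein, 46 lay below both controls (45.1%) and 16 above, with a median difference of -0.21.

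The genes with the smallest p were as follows. Rmi2 (chromosome 16, 10835059 to 10892966, GRCm38), a subunit of the BLM complex that resolves recombining DNA, was at 17.8 and 18.2 FPKM at 0.4 g/kg and at 8.54 and 9.48 FPKM at 8 g/kg. Its log2 difference was 0.93 (SE 0.102, limma adjusted p = 0.389), with values of 11.5 and 13.2 FPKM at 0.8 g/kg and 16.9 and 16.8 FPKM at 0 g/kg. Rbm3 (chromosome X, 8138975 to 8145880), an RNA-binding protein induced by cold, was at 20.0 and 20.3 FPKM at 0.4 g/kg and at 34.8 and 33.3 FPKM at 8 g/kg (log2 difference -0.73, SE 0.0823, limma adjusted p = 0.389). Neither gene's groups overlapped. The next in the higher direction were Taf15, an RNA-binding protein (0.75), the DNA topoisomerase Top1 (0.46) and Bcat1 (1.37), which starts the breakdown of branched-chain amino acids. They were followed by Rdm1 (0.95), Apip (0.49), an enzyme of methionine salvage, Ccdc91 (0.76), the kinase Pkn3 (0.67), Mettl3 (0.53), which methylates adenosine in mRNA, and the chaperone Hsph1 (1.16).

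In the lower direction, Slc2a9, a urate transporter, was at 7.79 and 6.62 FPKM at 0.4 g/kg against 13.8 and 14.8 FPKM at 8 g/kg (log2 difference -0.91). Usp3, which removes ubiquitin from histones, was at 40.4 and 39.3 FPKM against 57.5 and 58.0 FPKM at 8 g/kg (-0.53). For both genes the libraries of a diet lay close together and the diets did not overlap. Kctd2 (-0.59), the adenosine receptor Adora2a (-0.69), Anapc16 (-0.67), a subunit of the mitotic ubiquitin ligase APC/C, and Fhit (-1.10) were in the same group, as were the unnamed loci Gm16124 (-1.07) and Gm20033 (-1.43). Whether the authors' counting used strand is not stated, so values of Gm16124, Gm20033 and other loci that lie across another gene are uncertain. These genes were taken by smallest p, and all had an adjusted p of 0.389.

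**Figure D3:**
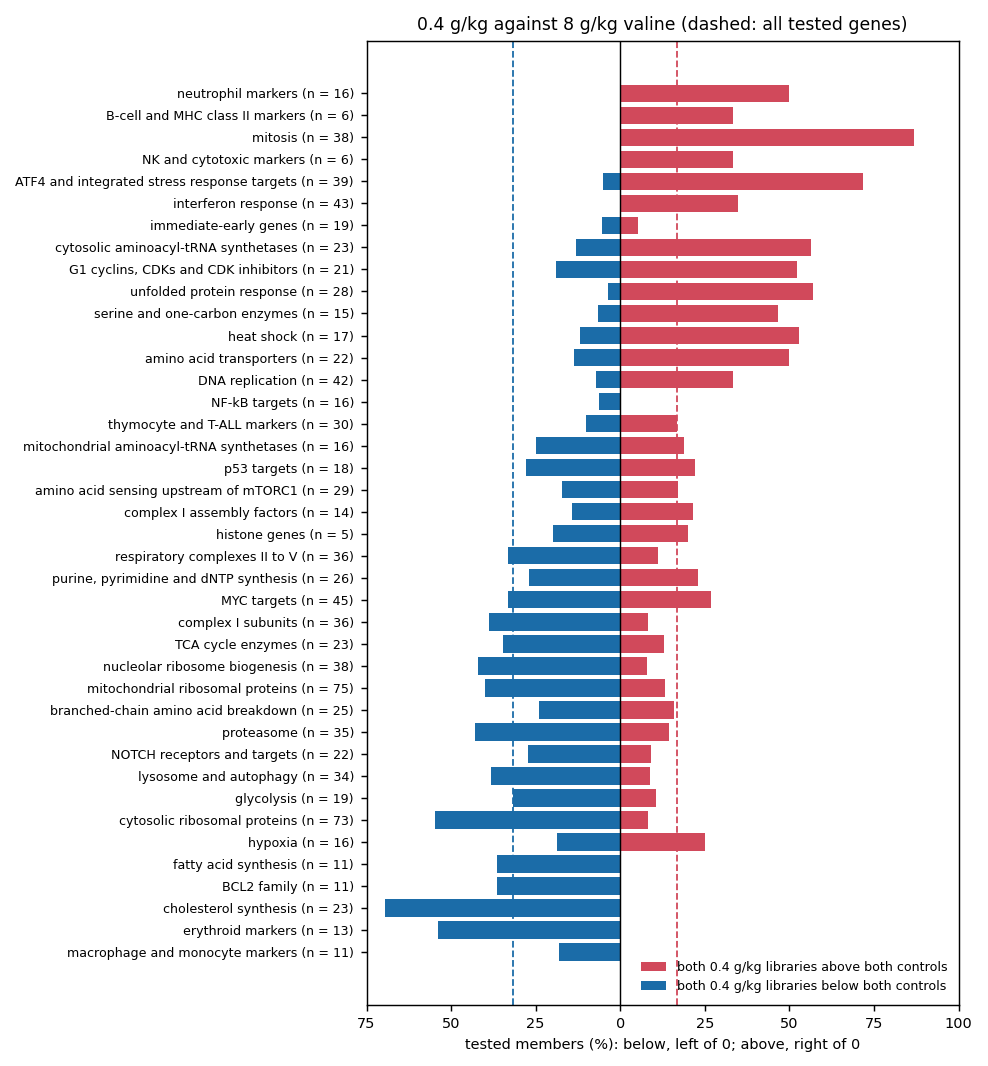
For each gene list with at least 5 tested members, bars to the right give the percentage of members with both 0.4 g/kg libraries above both controls and bars to the left the percentage below both. Dashed lines mark 16.9% and 31.8% for all tested genes. Mitosis and ATF4 targets reach furthest to the right of the larger lists, and cholesterol synthesis furthest to the left.

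Targets of ATF4 and the integrated stress response mostly lay above the controls. Of 39 tested members 28 lay above both controls (71.8%, against 16.9% of all genes) and 2 below, with 13 at an unadjusted p under 0.05 in limma, all higher. Their median log2 difference was 0.38, against -0.05 over all genes, and it ranged from 0.34 to 0.48 when each of the 4 libraries was left out. The neutrophil sum was also higher in these libraries. At 0.4 g/kg the neutrophil sum was 16.3 FPKM in TALL2 and 91.5 FPKM in TALL3, while log2(FPKM + 1) averaged over the ATF4 targets was 4.838 and 4.789. The part of other cells in this result was not tested, and in bulk RNA more cells of a type and more RNA per cell cannot be told apart.

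Asns, asparagine synthetase, is a standard ATF4 target through an amino acid response element in its promoter. The bases before its start are shown because the motif is read by ATF4 and its C/EBP partners. They are from RefSeq, GRCm38.p6, chr6:7693210-7693459, minus strand, given 5′ to 3′ along the gene, and capitals mark the core TGATGNAA, which begins at position -23.
Asns: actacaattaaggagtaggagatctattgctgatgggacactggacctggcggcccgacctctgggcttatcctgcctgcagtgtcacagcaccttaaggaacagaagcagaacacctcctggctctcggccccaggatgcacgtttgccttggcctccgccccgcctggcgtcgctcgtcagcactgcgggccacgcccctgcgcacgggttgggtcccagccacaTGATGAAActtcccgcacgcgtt

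Asns was at 47.3 and 17.1 FPKM at 0.4 g/kg and at 2.02 and 2.90 FPKM at 8 g/kg. The diets did not overlap, and TALL2 was the higher of the 0.4 g/kg libraries. Its log2 difference of 3.11 (SE 0.929, limma adjusted p = 0.411) was the largest of all tested genes. In the other diets it was at 69.2 and 84.6 FPKM at 0 g/kg and at 5.58 and 47.5 FPKM at 0.8 g/kg, where TALL3 was the higher. The core motif TGATGNAA, on either strand, was in the 250 bases before the start of 8 of 30 list genes with a RefSeq promoter (26.7%), against 3.91% of 27025 genes. Of those 8 genes 5 lay above both controls, and of the 22 without the motif 16 did.

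Enzymes of amino acid metabolism and carriers gave further examples. Bcat1, the cytosolic branched-chain aminotransferase, was at 9.97 and 7.17 FPKM at 0.4 g/kg and at 3.24 and 2.17 FPKM at 8 g/kg (log2 difference 1.37, SE 0.221). Pck2, the mitochondrial PEP carboxykinase, was at 9.63 and 13.1 FPKM against 3.51 and 4.21 FPKM at 8 g/kg (1.34, SE 0.306). Mthfd2, which runs the mitochondrial folate pathway in proliferating cells, was at 86.4 and 69.5 FPKM against 43.0 and 37.0 FPKM at 8 g/kg (0.94, SE 0.226). In these 3 genes the lower 0.4 g/kg library still lay at least 1.5-fold above the higher control. Psat1 (0.80), Shmt2 (0.63) and Gpt2 (1.25), which make serine, glycine and alanine, also lay above both controls. Atf5 (1.24), Eif4ebp1 (1.49), the inhibitor of cap-dependent translation, and the arginine carrier Slc7a3 (1.33) did too.

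Among genes linked to prolonged stress, Ddit3 and Ppp1r15a overlapped between 0.4 and 8 g/kg. Ddit3, which encodes CHOP, was at 8.11 and 11.5 FPKM at 0.4 g/kg and at 9.19 and 10.1 FPKM at 8 g/kg, while it was at 13.8 and 23.5 FPKM at 0 g/kg. Ppp1r15a, a phosphatase subunit that lets translation restart after stress, was at 12 and 19.2 FPKM at 0.4 g/kg and at 14.5 and 7.31 FPKM at 8 g/kg, against 45.8 and 52.9 FPKM at 0 g/kg. Trib3, a pseudokinase induced by CHOP and ATF4, was at 1.23 and 3.17 FPKM against 0.499 and 0.179 FPKM at 8 g/kg, and at 3.04 and 21.4 FPKM at 0 g/kg. Sesn2, an inhibitor of mTORC1, was at 2.97 and 4.35 FPKM at 0.4 g/kg against 2.70 and 2.40 FPKM at 8 g/kg. Atf4 itself was at 62.5 and 86.2 FPKM at 0.4 g/kg and at 80.3 and 76.2 FPKM at 8 g/kg, with overlapping diets (log2 difference -0.09, SE 0.268). The 2 members below both controls were Jdp2 (-0.25) and Wars (-0.05), chosen here after their values were seen.

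**Figure D4:**
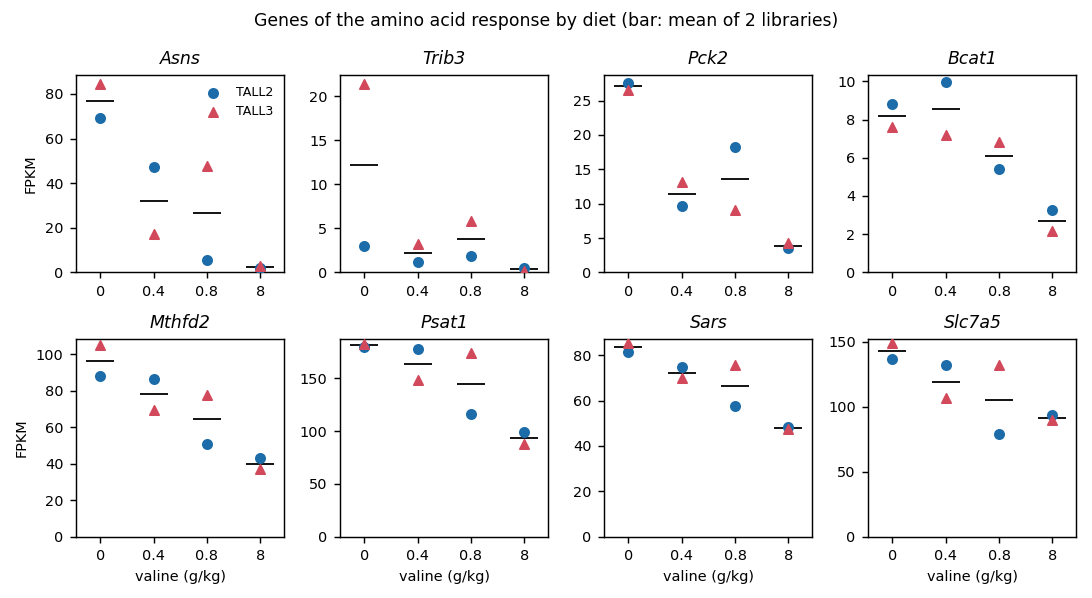
FPKM of 8 genes of the amino acid response in each library, by valine in the diet, with circles for TALL2, triangles for TALL3 and bars for the mean of the 2 libraries. At 0.4 g/kg Asns is at 47.3 and 17.1 FPKM against 2.02 and 2.90 at 8 g/kg, and the TALL2 library is the higher for Asns, Bcat1, Mthfd2, Psat1, Sars and Slc7a5.

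Cytosolic aminoacyl-tRNA synthetases load amino acids onto tRNA, and most lay above both controls. Of 23 members 13 lay above (56.5%, against 16.9% of all genes) and 3 below, with a median of 0.23 (0.11 to 0.22 without single libraries) and 8 at an unadjusted p under 0.05 in limma, all higher. Sars, the seryl enzyme, was at 74.7 and 69.8 FPKM at 0.4 g/kg and at 48.4 and 47.6 FPKM at 8 g/kg (log2 difference 0.58, SE 0.133, limma adjusted p = 0.389). Cars (1.07), Iars (0.75), Yars (0.69), Aars (0.62), Mars (0.62) and Nars (0.58) were the other large ones. Sars and Aars are also on the ATF4 list, so its counts and those of the synthetases are not independent. Vars, which charges the valine tRNA, was at 159 and 149 FPKM at 0.4 g/kg and at 149 and 146 FPKM at 8 g/kg, a difference of 0.06 (SE 0.0822). That difference was smaller than its error. The 16 mitochondrial synthetases had a median of 0.02 (-0.05 to 0.05 without single libraries). Of them 3 lay above (18.8%, against 16.9% of all genes) and 4 below (25.0%, against 31.8%). Their Vars2 was at 19.8 and 18.7 FPKM at 0.4 g/kg against 16.8 and 19.5 FPKM at 8 g/kg.

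Amino acid transporters lay above both controls in 11 of 22 (50.0%, against 16.9% of all genes) and below in 3 (13.6%, against 31.8%). Their median was 0.13 (0.06 to 0.15 without single libraries). The carrier of valine and other large neutral amino acids is formed by Slc7a5 and Slc3a2. Slc7a5 was at 132 and 107 FPKM at 0.4 g/kg and at 93.4 and 89.7 FPKM at 8 g/kg (log2 difference 0.37, SE 0.238), and Slc3a2 at 76.8 and 82.9 FPKM against 66.0 and 61.4 FPKM (0.32, SE 0.187). Slc1a5, a glutamine carrier, was at 97.0 and 93.2 FPKM against 87.1 and 88.2 FPKM at 8 g/kg (0.11). None of the 3 overlapped between the diets. Slc6a6, the taurine carrier, was the member with the smallest p and lay lower, at 24.4 and 21.0 FPKM at 0.4 g/kg against 39.1 and 34.4 FPKM at 8 g/kg (-0.67, SE 0.177). Serine and one-carbon enzymes lay above in 7 of 15 (46.7%) and below in 1 (6.67%), with a median of 0.16 (0.06 to 0.25 without single libraries). Shmt2 of this list is also on the ATF4 list, so the counts of these lists are not independent.

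Genes that break valine down lay on both sides of the controls, with the largest difference at Bcat1 (1.37), whose values are given above. In the branched-chain breakdown list 4 of 25 lay above and 6 below (16.9% and 31.8% over all genes), with a median of -0.07 (-0.09 to -0.00 without single libraries), and median-of-ratios scaling put 6 above and 4 below. Bckdha, a subunit of the dehydrogenase that commits branched-chain keto acids to oxidation, was at 28.8 and 27.3 FPKM at 0.4 g/kg and at 39.2 and 39.2 FPKM at 8 g/kg (log2 difference -0.47, SE 0.235). Bckdhb was at 5.49 and 4.31 FPKM against 5.25 and 4.41 FPKM (0.01), and Dbt, the core of the same complex, at 16.4 and 15.7 FPKM against 17.9 and 18.6 FPKM (-0.18). Ppm1k, the phosphatase that activates the complex, was at 5.01 and 4.71 FPKM at 0.4 g/kg against 3.60 and 3.85 FPKM at 8 g/kg (0.31). Only Bckdhb of these 4 overlapped between the diets. Bcat2, the mitochondrial aminotransferase, was at 30.4 and 24.9 FPKM against 25.4 and 24.0 FPKM (0.15), and Hibch, a late enzyme specific to valine, at 16.5 and 17.9 FPKM against 16.2 and 15.1 FPKM (0.13). Among 29 genes of amino acid sensing upstream of mTORC1 5 lay above (17.2%, against 16.9% of all genes) and 5 below (17.2%, against 31.8%). Their median was 0.00 (0.02 to 0.03 without single libraries), with 10 above and 5 below under median-of-ratios scaling. Mios of the GATOR2 complex was at 15.3 and 14.4 FPKM at 0.4 g/kg and at 21.8 and 20.1 FPKM at 8 g/kg (-0.47), and Rragc, a Rag GTPase, at 24.3 and 25.9 FPKM against 29.8 and 32.0 FPKM (-0.29).

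Most mitosis genes lay above both controls. Of 38 tested members 33 lay above both controls (86.8%, against 16.9% of all genes) and 0 below, and the other 5 overlapped. The median log2 difference was 0.39, with members from 0.02 to 0.73, and 8 had an unadjusted p under 0.05 in limma, all higher. It was 0.30 to 0.46 without single libraries and 0.45 with median-of-ratios scaling, which put 35 above. Averaged over the list, log2(FPKM + 1) was 5.511 and 5.456 at 0.4 g/kg, against 5.002 and 5.173 at 8 g/kg. In the other diets the average stood at 4.572 and 5.044 for 0 g/kg and 5.160 and 5.612 for 0.8 g/kg.

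Top2a encodes the topoisomerase that untangles chromosomes and is made in G2 and mitosis. Its promoter is shown for the CHR element (letters TTTGAA), through which many genes of late cell cycle are repressed in resting cells. The bases are from RefSeq, GRCm38.p6, chr11:99024190-99024439, minus strand, given 5′ to 3′ along the gene, with both matches in capitals at positions -179 and -23, the second on the opposite strand.
Top2a: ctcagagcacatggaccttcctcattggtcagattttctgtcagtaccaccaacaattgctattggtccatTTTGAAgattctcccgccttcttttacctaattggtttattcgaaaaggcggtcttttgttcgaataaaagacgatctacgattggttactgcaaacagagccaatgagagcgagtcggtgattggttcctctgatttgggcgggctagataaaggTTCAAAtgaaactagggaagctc

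Top2a was at 326 and 287 FPKM at 0.4 g/kg and at 190 and 219 FPKM at 8 g/kg (log2 difference 0.58, SE 0.156, limma adjusted p = 0.397). Bub1b, a kinase of the spindle checkpoint, was at 96.8 and 83.8 FPKM at 0.4 g/kg and at 57.9 and 63.9 FPKM at 8 g/kg (0.56, SE 0.158). Anln, an actin-binding protein of the cleavage furrow, was at 19.5 and 15.6 FPKM against 11.9 and 12.2 FPKM (0.50, SE 0.149). In each, the lower 0.4 g/kg library lay above the higher control. Hmmr (0.73), Spc25 (0.66) of the kinetochore and the spindle motor Kif11 (0.58) had the largest differences with an unadjusted p under 0.05. Ccna2, cyclin A2, was at 126 and 117 FPKM at 0.4 g/kg against 86.8 and 103 FPKM at 8 g/kg, and Ccnb1 differed by 0.23. Cdc20, Aurkb, Pttg1, Bub3 and Cdc25b overlapped between the diets. The CHR letters were in the promoters of 10 of 30 mitosis genes (33.3%), against 18.3% of 27025 genes, and 8 of those 10 lay above both controls, as did 18 of the 20 without them.

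DNA replication genes shared less of this difference. In that list 14 of 42 lay above (33.3%, against 16.9% of all genes) and 3 below (7.14%, against 31.8%). The median was 0.13 (0.03 to 0.22 without single libraries). Pold3, a subunit of DNA polymerase delta, was at 31.8 and 27.1 FPKM at 0.4 g/kg and at 22.9 and 22.7 FPKM at 8 g/kg (log2 difference 0.35, SE 0.130). The helicase subunits Mcm2 (188 and 174 FPKM at 0.4 g/kg, against 165 and 201 FPKM at 8 g/kg) and Mcm6 (233 and 197 FPKM at 0.4 g/kg, against 192 and 205 FPKM at 8 g/kg) overlapped. Cdt1, which loads that helicase, was lower, at 69.9 and 61.2 FPKM against 79.0 and 84.4 FPKM at 8 g/kg (-0.32). Nucleotide synthesis genes lay above in 6 of 26 (23.1%) and below in 7 (26.9%). Their median was -0.05 (-0.07 to -0.00 without single libraries), with 6 above and 3 below under median-of-ratios scaling. The kinase Dck was at 66.2 and 72.1 FPKM at 0.4 g/kg against 52.2 and 56.3 FPKM at 8 g/kg (0.34). Among G1 cyclins, their kinases and inhibitors 11 of 21 lay above (52.4%) and 4 below (19.0%), with a median of 0.22 (0.12 to 0.20 without single libraries). Cyclin D2, Ccnd2, was lower at 28.2 and 34.0 FPKM at 0.4 g/kg against 41.1 and 47.2 FPKM at 8 g/kg (-0.49), and Cdk6 was at 144 and 125 FPKM against 116 and 88.3 FPKM (0.40). Of 24 histone genes 5 were tested, 1 above and 1 below (median -0.03, -0.07 to 0.01 without single libraries).

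The 0.4 g/kg libraries were also set against the diets on either side, which places them in the series of 4 diets. These comparisons share the 0.4 g/kg libraries with the one above. Limma called 0 genes against 0.8 g/kg, with 86 (0.865%) below an unadjusted p of 0.05, of which 27 (0.272%) were higher and 59 (0.593%) lower, and by voom 0 were called and 103 lay below that p. In that comparison 794 genes lay above (7.99%) and 1294 below (13.0%). Against 0 g/kg limma called 0, with 527 genes (5.30%) below an unadjusted p of 0.05, of which 173 (1.74%) were higher and 354 (3.56%) lower. By voom 0 were called and 518 lay below that p, while 1174 lay above (11.8%) and 2286 below (23.0%). ATF4 targets had a median of 0.12 against 0.8 g/kg (5 above and 1 below) and of -0.33 against 0 g/kg, where 20 of 39 lay below both 0 g/kg libraries and 0 above. Mitosis genes had a median of 0.10 against 0.8 g/kg, with 0 above and 0 below, and of 0.65 against 0 g/kg, where 37 of 38 lay above. DNA replication genes had a median of 0.18 against 0.8 g/kg (5 above, 0 below) and of -0.13 against 0 g/kg, where 19 of 42 lay below and 1 above. At 0 g/kg mitosis genes thus lay below the 0.4 g/kg libraries while replication genes did not. The neutrophil sums of 681 and 394 FPKM at 0 g/kg move with this comparison, and their part in it was not tested. Cd8a, a T-cell co-receptor chain, had a large difference from 0.8 g/kg, at 53.7 and 22.7 FPKM at 0.4 g/kg against 7.94 and 2.89 FPKM at 0.8 g/kg (log2 difference 2.61, SE 0.619), and was at 29.8 and 14.3 FPKM at 8 g/kg. It was chosen for naming after its values were seen.

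**Figure D5:**
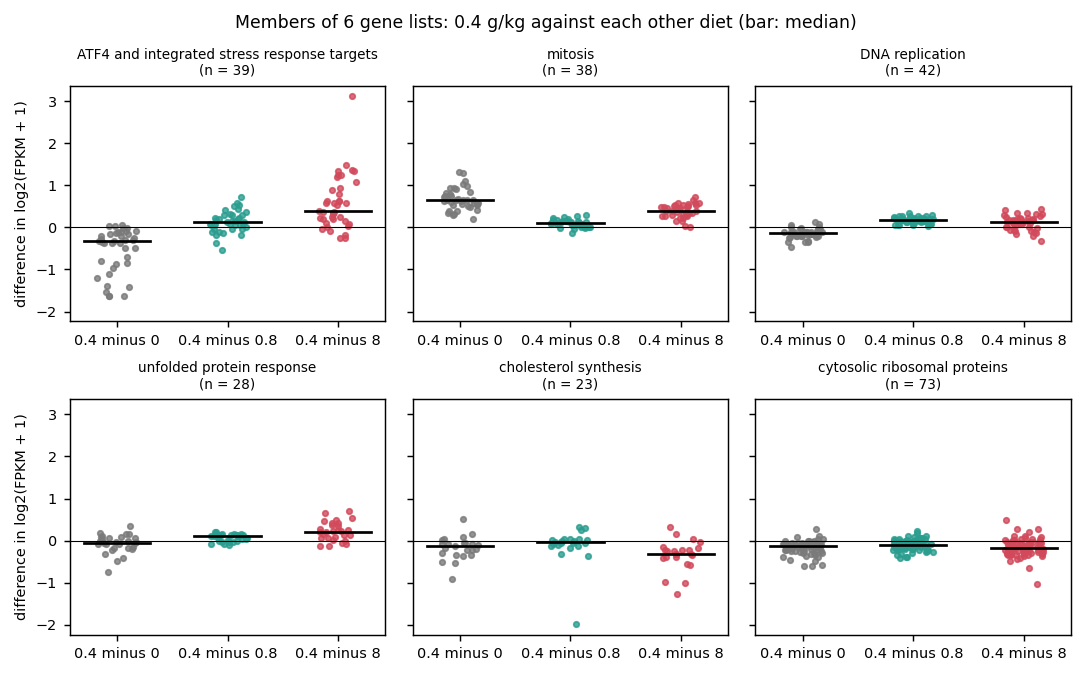
Each point is 1 gene and gives the difference in log2(FPKM + 1) of the 0.4 g/kg libraries from the diet named on the horizontal axis, for 6 gene lists, with bars at the median. Mitosis genes lie above 0 against both 0 and 8 g/kg (medians 0.65 and 0.39), whereas ATF4 targets lie below 0 against 0 g/kg (-0.33) and above it against 8 g/kg (0.38).

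Mitochondrial respiration genes differed little. Complex I, the first and largest enzyme of the respiratory chain, had 36 tested subunit genes, of which 3 lay above and 14 below (38.9%, against 31.8% of all genes), with a median of -0.06 (-0.11 to -0.03 without single libraries). With median-of-ratios scaling 11 lay above and 9 below, with a median of -0.00, where all genes had 23.7% above and 23.8% below. With quantile normalisation 7 lay above and 15 below, with a median of -0.06, where all genes had 22.9% and 23.9%. Its direction therefore depended on which scaling was used. Ndufs3 was at 26.4 and 27.9 FPKM at 0.4 g/kg and at 34.2 and 31.6 FPKM at 8 g/kg (log2 difference -0.27, SE 0.10), and Ndufa11 at 10.1 and 12.1 FPKM against 13.9 and 14.2 FPKM (-0.32). Ndufs1, the largest subunit, was at 53.6 and 51.6 FPKM against 50.4 and 50.8 FPKM (0.05, SE 0.0724), and Ndufb3 at 29.3 and 31.2 FPKM against 30.8 and 29.4 FPKM (0.01, SE 0.118). Ndufa10 was at 96.6 and 90.5 FPKM at 0.4 g/kg against 117 and 106 FPKM at 8 g/kg (-0.25). The subunits therefore pointed both ways, and the complex I assembly factors had a median of -0.01 (-0.04 to 0.01 without single libraries). Of these 14 factors 3 lay above (21.4%, against 16.9% of all genes) and 2 below (14.3%, against 31.8%).

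Subunits of complexes II to V had a median of -0.05 (-0.09 to -0.01 without single libraries), and of 0.01 with median-of-ratios scaling. Of 36 members 4 lay above (11.1%, against 16.9% of all genes) and 12 below (33.3%, against 31.8%). Uqcrfs1, the Rieske protein of complex III, was lower, at 102 and 98.7 FPKM at 0.4 g/kg against 125 and 125 FPKM at 8 g/kg (log2 difference -0.32, SE 0.0894, limma adjusted p = 0.409). Atp5b of the ATP synthase overlapped between the diets, at 945 and 912 FPKM against 902 and 947 FPKM. TCA cycle enzymes had 3 of 23 above (13.0%) and 8 below (34.8%). Their median was -0.06 (-0.06 to -0.03 without single libraries), with 5 above and 4 below under median-of-ratios scaling. Ogdh was higher at 143 and 136 FPKM against 113 and 119 FPKM at 8 g/kg (0.27). Mitochondrial ribosomal proteins had 10 of 75 above and 30 below (median -0.06, -0.08 to -0.03 without single libraries, with 16 above and 22 below under median-of-ratios scaling). Mrpl27 was at 12.4 and 11.9 FPKM at 0.4 g/kg against 17.1 and 16.5 FPKM at 8 g/kg (-0.44), and Mrpl24 at 82.7 and 86.3 FPKM against 71.8 and 70.6 FPKM (0.24).

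Cytosolic ribosomal proteins, whose mRNAs are among those most dependent on mTORC1 for translation, lay below both controls in 40 of 73 genes (54.8%, against 31.8% of all genes) and above in 6. Their median was -0.17 (-0.21 to -0.10 without single libraries), and with median-of-ratios scaling it was -0.11, with 33 below and 9 above. Rpl8 was at 1721 and 1844 FPKM at 0.4 g/kg and at 1995 and 2060 FPKM at 8 g/kg (log2 difference -0.19). Rpl5 differed most, at 17.6 and 13.1 FPKM against 34.0 and 29.6 FPKM at 8 g/kg (-1.02, SE 0.193, limma adjusted p = 0.389). These genes have many near-identical processed pseudogenes, and how reads were divided among them is not stated, so single values are uncertain. Nucleolar genes of ribosome assembly lay below in 16 of 38 (42.1%, against 31.8% of all genes) and above in 3 (7.89%, against 16.9%). Their median was -0.06 (-0.12 to -0.02 without single libraries). Median-of-ratios scaling put 12 below and 8 above, where all genes had 23.8% below and 23.7% above. Pes1 was at 41.8 and 38.8 FPKM at 0.4 g/kg against 50.2 and 52.5 FPKM at 8 g/kg (-0.34), and Polr1a, the large subunit of RNA polymerase I, at 24.9 and 22.5 FPKM against 27.9 and 30.4 FPKM (-0.29). Proteasome genes lay below in 15 of 35 (42.9%, against 31.8% of all genes) and above in 5 (14.3%, against 16.9%). Their median was -0.07 (-0.10 to -0.02 without single libraries), with 9 below and 8 above under median-of-ratios scaling.

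Myc, the growth regulator induced by NOTCH1 in T-ALL, was at 178 and 156 FPKM at 0.4 g/kg and at 267 and 222 FPKM at 8 g/kg (log2 difference -0.55, SE 0.192, limma adjusted p = 0.430). Its values were 161 and 112 FPKM at 0 g/kg and 185 and 202 FPKM at 0.8 g/kg, so every library of the restricted diets lay below both controls. MYC targets as a list were split, with 12 of 45 above (26.7%, against 16.9% of all genes) and 15 below (33.3%, against 31.8%), Myc itself among the 15. Their median was -0.05 (-0.08 to -0.01 without single libraries), with 16 above and 11 below under median-of-ratios scaling. Among them the rRNA methylase Fbl was at 10.5 and 10.3 FPKM at 0.4 g/kg against 13.8 and 13.6 FPKM at 8 g/kg (-0.37) and Ppan at 41.9 and 44.9 FPKM against 57.3 and 50.4 FPKM (-0.30).

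NOTCH receptors and targets, a list that also counts Myc, lay below in 6 of 22 (27.3%, against 31.8% of all genes) and above in 2. Their median was -0.10 (-0.12 to -0.06 without single libraries). Hes1, the best-known NOTCH target, was at 71.0 and 68.2 FPKM at 0.4 g/kg and at 99.8 and 76.3 FPKM at 8 g/kg (log2 difference -0.32, -0.51 to -0.13 without single libraries), and Heyl at 45.5 and 50.5 FPKM against 65.3 and 57.3 FPKM (-0.35). Notch1, for which it is not given in the sources used here whether reads of the transplanted NOTCH delta E were counted, was at 284 and 253 FPKM against 292 and 408 FPKM at 8 g/kg (-0.37, -0.61 to -0.12 without single libraries). Dtx1, a ubiquitin ligase of the pathway, overlapped at 416 and 492 FPKM against 512 and 489 FPKM. T-lineage genes lay above in 5 of 30 and below in 3 (median 0.02, -0.06 to 0.14 without single libraries). Cd28, a co-stimulatory receptor, was at 104 and 97.9 FPKM at 0.4 g/kg against 78.1 and 70.9 FPKM at 8 g/kg (0.43), and the transcription factors Tcf12 (153 and 152 FPKM, against 187 and 199 FPKM) and Ikzf1 (399 and 367 FPKM, against 473 and 451 FPKM) were lower. Cd3e, at 296 and 278 FPKM, lay inside the controls' range of 219 and 436 FPKM.

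Most cholesterol synthesis genes lay below both controls. Of 23 tested genes of this SREBP2-driven pathway 16 lay below both controls (69.6%, against 31.8% of all genes) and 0 above, and 6 had an unadjusted p under 0.05 in limma, all lower. The median was -0.31, and -0.25 with median-of-ratios scaling, which put 13 below. Without the TALL2 control it was -0.14, and without the TALL3 control -0.47, so its size depended on which control library was used. Insig1, a sterol-sensing retainer of SREBP, was at 8.24 and 5.71 FPKM at 0.4 g/kg and at 15.8 and 13.7 FPKM at 8 g/kg (log2 difference -1.0, SE 0.287, limma adjusted p = 0.410). Hmgcs1, which starts the pathway, was at 25.4 and 23.6 FPKM against 41.6 and 32.9 FPKM (-0.57), and Lss, which closes the sterol rings, at 4.97 and 4.24 FPKM against 7.99 and 6.44 FPKM (-0.55). All 3 lay below both controls. Dhcr7, near the end of the pathway, was at 112 and 125 FPKM against 122 and 123 FPKM (-0.04). Fatty acid synthesis lay below in 4 of 11 (36.4%, against 31.8% of all genes) and above in 0. Its median was -0.19 (-0.23 to -0.10 without single libraries). Scd2, a fatty acid desaturase, was at 121 and 122 FPKM at 0.4 g/kg against 169 and 170 FPKM at 8 g/kg (-0.48, SE 0.118), and Acly at 127 and 124 FPKM against 149 and 141 FPKM (-0.21).

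Glycolysis lay below in 6 of 19 (31.6%, against 31.8% of all genes) and above in 2 (10.5%, against 16.9%). Its median was -0.15 (-0.14 to -0.04 without single libraries). Ldha was at 312 and 325 FPKM at 0.4 g/kg against 352 and 357 FPKM at 8 g/kg (log2 difference -0.15), Eno1 at 32.8 and 30.9 FPKM against 40.4 and 38.5 FPKM (-0.30), and Pfkp was higher at 21.8 and 21.1 FPKM against 15.7 and 12.8 FPKM (0.57). Hypoxia genes were split, with 4 of 16 above (25.0%) and 3 below (18.8%), and a median of -0.18 (-0.14 to 0.06 without single libraries). The oxygen sensor Egln1 was at 24.7 and 22.8 FPKM at 0.4 g/kg against 33.4 and 29.3 FPKM at 8 g/kg (-0.39). Lysosome and autophagy genes lay below in 13 of 34 (38.2%) and above in 3 (8.82%). Their median was -0.12 (-0.10 to -0.05 without single libraries), with Lamp1 at 109 and 95.5 FPKM against 114 and 119 FPKM (-0.19).

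Chaperones of the endoplasmic reticulum mostly lay above both controls. In the unfolded protein response list 16 of 28 lay above both controls (57.1%, against 16.9% of all genes) and 1, Sel1l, below, with a median of 0.21 (0.11 to 0.31 without single libraries). At an unadjusted p under 0.05 in limma 5 were higher and 0 lower. Hsp90b1 encodes GRP94, the HSP90 of the endoplasmic reticulum. Its promoter is shown because it holds the endoplasmic reticulum stress element, CCAAT and CCACG set 9 bases apart, 2 times, at positions -212 and -107, the second on the opposite strand. The bases are from RefSeq, GRCm38.p6, chr10:86705445-86705694, minus strand, given 5′ to 3′ along the gene, with the matches in capitals.
Hsp90b1: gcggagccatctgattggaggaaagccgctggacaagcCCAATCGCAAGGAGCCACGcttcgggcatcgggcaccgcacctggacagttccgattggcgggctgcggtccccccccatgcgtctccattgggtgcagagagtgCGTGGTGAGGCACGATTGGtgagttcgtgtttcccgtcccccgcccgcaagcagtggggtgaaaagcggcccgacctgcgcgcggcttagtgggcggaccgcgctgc

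Hsp90b1 was at 209 and 220 FPKM at 0.4 g/kg and at 127 and 134 FPKM at 8 g/kg (log2 difference 0.71, SE 0.204, limma adjusted p = 0.409), with 133 and 210 FPKM at 0 g/kg and 186 and 205 FPKM at 0.8 g/kg. Pdia4, a disulphide isomerase, was at 76.9 and 87.7 FPKM against 52.6 and 51.1 FPKM at 8 g/kg (0.65), and Hyou1, a large chaperone, at 57.2 and 59.6 FPKM against 39.6 and 42.3 FPKM (0.50). Hspa5, the main chaperone of this compartment, was at 161 and 205 FPKM against 142 and 130 FPKM (0.41). None of these 4 overlapped between the diets. The stress element was in the promoters of 8 of 22 list genes (36.4%), against 0.130% of 27025 genes, and 7 of those 8 lay above both controls, as did 4 of the 14 without it.

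Heat-shock genes of the cytosol and mitochondria lay above in 9 of 17 (52.9%, against 16.9% of all genes) and below in 2 (11.8%, against 31.8%). Their median was 0.15 (0.10 to 0.18 without single libraries). Hsph1, a nucleotide exchange factor for HSP70, was at 29.5 and 34.1 FPKM at 0.4 g/kg and at 14.5 and 12.9 FPKM at 8 g/kg (log2 difference 1.16, SE 0.220, limma adjusted p = 0.389). Chordc1, an HSP90 partner, was at 20.1 and 24.9 FPKM against 15.8 and 14.8 FPKM (0.52), and Hsf1, the factor that drives the response, at 32.5 and 34.8 FPKM against 26.5 and 27.2 FPKM (0.31). The abundant Hsp90ab1 lay below both controls, at 2044 and 1932 FPKM against 2336 and 2055 FPKM (-0.14). The heat-shock element, searched as GAA, TTC and GAA set 2 bases apart, was in 2 of 12 promoters (16.7%), against 0.514% of 27025 genes. Of those 2 genes 1 lay above both controls, as did 6 of the 10 without it.

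Interferon response genes lay above in 15 of 43 (34.9%, against 16.9% of all genes) and below in 0, with a median of 0.32 that depended on single libraries. It was 0.56 without the TALL2 library at 0.4 g/kg and 0.08 without the TALL3 library there, and -0.04 without the TALL2 control and 0.72 without the TALL3 control. Ifi27 was at 60.0 and 78.2 FPKM at 0.4 g/kg and at 33.0 and 37.4 FPKM at 8 g/kg (log2 difference 0.94, SE 0.356), and Oasl2 at 6.42 and 8.26 FPKM against 3.13 and 2.36 FPKM (1.15). Igtp, a GTPase induced by interferon gamma, overlapped between the diets at 17.3 and 21.9 FPKM against 13.6 and 39.2 FPKM at 8 g/kg. The interferon-stimulated response element core, TTTC 2 times with 2 bases between, was in 16 of 34 promoters (47.1%), against 3.46% of 27025 genes. Of those 16 genes 5 lay above both controls, as did 6 of the 18 without it.

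Immediate-early and NF-kB genes mostly overlapped between the diets, in 17 of 19 and 15 of 16 members, against 5097 of 9943 over all genes. In the immediate-early list 1 of 19 lay above and 1, Myc, below (median 0.27, from -0.22 without the TALL3 library at 0.4 g/kg to 0.80 without the TALL2 library). Junb was at 88.8 and 187 FPKM at 0.4 g/kg and at 160 and 65.9 FPKM at 8 g/kg, and Egr1 at 31.6 and 53.6 FPKM against 31.3 and 24.0 FPKM. NF-kB targets lay above in 0 of 16 and below in 1 (median 0.08, -0.14 to 0.37 without single libraries). Genes of the BCL2 family lay below in 4 of 11 (36.4%, against 31.8% of all genes) and above in 0, with 3 below under median-of-ratios scaling (median -0.24, -0.42 to -0.13 without single libraries). The 4 were Bad, Bbc3, Bcl2l11 and Bmf. Bad was at 8.55 and 9.08 FPKM at 0.4 g/kg against 12.8 and 12 FPKM at 8 g/kg (log2 difference -0.45), and Bcl2l11, which encodes BIM, at 7.26 and 7.57 FPKM against 9.78 and 10.3 FPKM (-0.39). Targets of p53 lay above in 4 of 18 (22.2%, against 16.9% of all genes) and below in 5 (27.8%, against 31.8%). Their median was 0.02 (-0.08 to 0.13 without single libraries), and Trp53 was at 112 and 116 FPKM against 96.0 and 113 FPKM.

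Genes of other cell types gave these values. Neutrophil markers lay above both controls in 8 of 16 (50.0%, against 16.9% of all genes) and below in 0. Their median was 0.97, and from 0.24 without the TALL3 library at 0.4 g/kg to 1.51 without the TALL2 one. The mean filter also counted the 0 g/kg libraries, where their sum was highest, so markers near 0 in the controls could pass it. Retnlg was at 17.4 and 13.1 FPKM at 0 g/kg, 0.665 and 2.07 FPKM at 0.4 g/kg and 0 and 0.0993 FPKM at 8 g/kg. S100a9, a neutrophil calcium-binding protein, was at 3.50 and 23.8 FPKM at 0.4 g/kg and at 0.265 and 1.51 FPKM at 8 g/kg (log2 difference 2.57, SE 0.855), and was highest in TALL3 among the 0.4 g/kg and control libraries. Erythroid markers lay below in 7 of 13 (53.8%, against 31.8% of all genes) and above in 0. Their median was -0.40, and from -1.33 without the TALL2 control to -0.29 without the TALL3 one. Hbb-bs, a beta globin, was at 25.0 and 16.1 FPKM at 0.4 g/kg against 58.9 and 156 FPKM at 8 g/kg (-2.20), and its reads may be shared with the near-identical Hbb-bt. Macrophage and monocyte markers lay above in 0 of 11 and below in 2 (18.2%, against 31.8% of all genes), which were Axl and Cd68. Their median was -0.41, and from -0.68 without the TALL2 control to 0.05 without the TALL3 one. B-cell and MHC class II markers lay above in 2 of 6 (33.3%, against 16.9% of all genes), with a median of 0.48 (-0.00 to 1.42 without single libraries). NK and cytotoxic markers lay above in 2 of 6 (33.3%), with a median of 0.38 (0.16 to 0.54 without single libraries). Of these Gzma alone was at 570 and 854 FPKM at 0.4 g/kg against 563 and 454 FPKM at 8 g/kg. Plasma cell markers had 3 of 4 above and 1 below, dendritic cell markers 1 of 4 above, endothelial and stromal markers 2 of 3 below, and the 1 tested platelet marker and the 1 tested mast cell marker overlapped. What these cells add to the differences of other genes was not tested.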

How the data were processed

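Gene expression was measured by RNA sequencing of total RNA from GFP-sorted leukaemic spleen cells, with a strand-specific library kit per the labels' protocols. The authors deposited FPKM per gene for 10430 genes. The submitters' processing notes name STAR, edgeR, mm10 and hg19 without their roles. The sources used here name no counting program and no strand setting. Of the gene IDs 10427 were in GENCODE vM21 (GRCm38), which gave coordinates and the names of 318 genes listed without a symbol. 0 columns of the mouse table were left unused.

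Genes whose FPKM averaged 1 or more across the 8 mouse libraries entered limma (version 3.58.1, R 4.3.3). The fit used log2(FPKM + 1), diet at 4 levels, a mean-variance trend, two-sided p and Benjamini-Hochberg adjustment over 9943 genes (threshold 0.05). Fold changes on this scale understate the change of low genes. FPKM hold no depth, so read numbers per library (14218071 to 37677050) were estimated from the steps between low FPKM values and used only for voom and depth. Libraries of 1 diet differed beyond counting noise in all 4 diets (chi-square per degree of freedom 39.6 to 96.7). Each library was counted as 1 replicate, though that spread may be technical. The steps were tested on simulated data.

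Members, gene lists (45, of which 40 had at least 5 tested members) and promoter motifs were chosen with earlier results of these data known. Lists are described by counts and medians. Genes named are the 10 per direction with the smallest p among genes of at least 5 FPKM in the higher diet whose libraries did not overlap, a set of amino acid, NOTCH and respiration genes, and members of each list chosen from the 3 with the smallest p and the 2 with the highest mean FPKM. Some genes that this rule takes are not reported here. Other genes named give range or contrast and were chosen after their values were seen. Promoters are RefSeq's 250 bases before each start. Alternatives changed the pseudocount, filter, scaling, trend, libraries fitted, replicate block and test.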

Additional observations from a re-analysis of the deposited data

How the results depend on the processing

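With 2 libraries per diet, single genes could not be separated from the spread, and dietary valine is the sole difference between diets that the labels give. Against 8 g/kg limma or voom called 0 genes under every alternative. At an unadjusted p under 0.05 there were 306 higher genes, 471 with median-of-ratios scaling and 92 to 355 without single libraries. There were 753 lower genes, 475 with quantile normalisation and 328 to 831 without single libraries. Genes above both controls numbered 1682, and 1682 to 3082 without single libraries, where a diet left with 1 library overlaps less by construction. A lone library was assumed to vary like the others. Lists with a median of at least 0.2 numbered 10, 5 with a pseudocount of 5, by which small differences shrink, and 6 to 10 without single libraries. Lists with a median of -0.2 or lower numbered 4, and 2 to 6 without single libraries. Of 720 list medians 647 moved by less than the spread, 73 moved by more, and 21 had the opposite sign.

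Against 0.8 g/kg the 27 higher genes at an unadjusted p under 0.05 became 43 with voom and 17 to 179 without single libraries, and the 59 lower genes became 42 to 162. Against 0 g/kg the 173 higher genes became 276 with median-of-ratios scaling, 289 with quantile normalisation and 62 to 222 without single libraries. The 354 lower genes became 200 with quantile normalisation and 200 to 583 without single libraries. The cause was not tested.

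The names TALL2 and TALL3 recur in each diet, and a replicate block on them left 0 calls against 8 g/kg, with 394 higher and 872 lower genes at an unadjusted p under 0.05. Against 0.8 g/kg the block gave 1 call, Cd8a, with 48 higher and 96 lower genes. Deviations from the diet means correlated between diets at -0.174 (0.4 and 0.8 g/kg), 0.0588 (0.4 and 8 g/kg) and 0.363 to 0.743 for the other 4 pairs of diets. Of the 8 libraries 7 were nearest to their own name in another diet, the exception being TALL3 at 0.4 g/kg. The names therefore were not taken as pairs. A crossed pairing of the 0.4 g/kg libraries, chosen after seeing the data, gave 0 calls against 0.8 g/kg, with 47 higher and 95 lower genes.

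Of 2584 values of named genes under the alternatives 35 changed sign or became 0, all without a call. With median-of-ratios scaling Dhcr7 was at 0.01, Mcm2 at 0.05 and Wars at 0.01. With voom Ddit3 was at -0.06, Mcm2 at 0.01 and Pttg1 at -0.06. With quantile normalisation Hsp90ab1 was at 0.00. Without single libraries the log2 difference ran from -0.32 to 0.14 for Atf4, -0.03 to 0.04 for Atp5b, -0.13 to 0.16 for Bckdhb, -0.03 to 0.10 for Bub3, -0.60 to 0.39 for Cd3e and -0.13 to 0.46 for Cdc20. It ran from -0.22 to 0.23 for Ddit3, -0.12 to 0.04 for Dhcr7, -0.97 to 0.49 for Igtp, -0.31 to 0.96 for Junb, -0.15 to 0.13 for Mcm2 and -0.01 to 0.23 for Mcm6. It ran from -0.04 to 0.05 for Ndufb3, -1.07 to 1.59 for Ptcra, -0.19 to 0.23 for Pttg1, -0.05 to 0.11 for Thy1, -0.02 to 0.18 for Vars2 and -4.21 to 0.65 for Wls.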
